A study of Homo sapiens with 2 samples.

Results

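The 10 genes described here encode the main proteins that hold, deliver and recycle actin monomers in nonmuscle cells, together with the cytoplasmic actins. The 10 also include genes for a filament-binding protein and for a light chain of the motor protein myosin II. They were listed by name, and were in part chosen by their shEIF3F and shCON TPM, since earlier results of these data were known. They are the beta thymosins TMSB10 and TMSB4X, the profilins PFN1 and PFN2, the cofilins CFL1 and CFL2, the actins ACTB and ACTG1, the transgelin TAGLN2 and the myosin light chain MYL6. The steep difference of TMSB10 was part of the reason for the choice, so all values of these genes are given as a description. All 10 were found among the 51273 gene symbols kept from the deposited table, each as 1 entry, and all 10 averaged at least 1 TPM over both libraries, as did 13305 symbols in all. TPM is the reads of a gene divided by transcript length, taken as a share of the sum of such values over the library.

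The RNA came from 22Rv1 cells, a human prostate cancer line grown from a xenograft that relapsed after castration. One library was made from cells expressing a short hairpin RNA against EIF3F (shEIF3F), and 1 from cells expressing the vector control (shCON). EIF3F encodes a subunit of eIF3, a factor that brings the ribosome to messenger RNA. The labels name 1 hairpin, so effects of the hairpin on other transcripts and effects of less EIF3F cannot be told apart. With 1 library per group there is no replicate check, no error and no p-value for any difference below. The listed TPM summed to 994055 in shEIF3F and 992454 in shCON, and the depth behind them is unknown. EIF3F stood at 17.0 TPM in shEIF3F, against 991 TPM in shCON, the direction the labels give. All 7 prostate luminal markers looked up were measured (KLK2, KLK3, KLK4, HOXB13, EPCAM, KRT8 and KRT18), but they went different ways. KLK4 (log2 ratio -3.29), KLK2 (-3.26), KLK3 (-1.87) and HOXB13 (-1.23) were lower in shEIF3F by 2-fold or more and EPCAM (1.73) higher, with KRT8 (0.21) and KRT18 (0.95) within 2-fold. The log2 ratio is log2((shEIF3F TPM + 1) / (shCON TPM + 1)). Of 19 markers of muscle, fibroblasts, blood and endothelium, 4 reached a mean of 1 TPM (COL1A1, DCN, LUM and HBB), and the 19 summed to 68.7 TPM in shEIF3F and 100.1 TPM in shCON. The muscle markers DES, MYH11, MYH1, MYH2 and CKM were at 0.06 TPM or less in both libraries. The part of these markers in the results below was not tested.

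Actin cycles between monomers and filaments. Beta thymosins bind monomers one to one and keep them out of filaments, profilins exchange the nucleotide on the monomer and deliver it to growing ends, and cofilins sever old filaments and return monomers to the pool. The beta and gamma cytoplasmic actins, from ACTB and ACTG1, are nearly identical proteins that form most filaments of a nonmuscle cell. Monomeric actin also holds back the MRTF cofactors of serum response factor (SRF), a transcription factor that binds the CArG box in the promoters of many actin cytoskeleton genes.

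The coding sequences of the beta thymosins are shown because the genes lie far apart in level and their reads must be told apart. They come from GENCODE release 29, run 5′ to 3′, and capitals mark every base at which one differs from the other.
TMSB10: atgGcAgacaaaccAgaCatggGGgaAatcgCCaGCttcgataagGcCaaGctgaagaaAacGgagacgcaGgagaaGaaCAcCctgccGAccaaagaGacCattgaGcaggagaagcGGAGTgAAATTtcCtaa
TMSB4X: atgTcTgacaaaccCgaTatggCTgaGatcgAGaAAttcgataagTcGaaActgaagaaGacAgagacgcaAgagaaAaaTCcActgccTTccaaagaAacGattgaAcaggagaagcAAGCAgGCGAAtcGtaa
Both are 135 bases long with the stop codon. They differ at 37 bases (72.6% identity), and the longest run they share is 10 bases. The cofilins differed at 150 of 501 coding bases (70.1% identity, longest shared run 11 bases) and the profilins at 168 of 423 (60.3%, 9 bases). The actins were closest, with 99 differences over 1128 bases (91.2% identity) and a longest shared run of 59 bases. Of the pairs compared here, ACTB and ACTG1 are thus the one whose coding reads could most easily be divided wrongly. MYL6 and MYL6B were not compared in this way.

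The promoter table of RefSeq (GRCh38.p14) held 11 start sites for 8 of the 10 genes, all but ACTB and PFN2. A pair of promoters is shown, that of TMSB10, which had the lowest log2 ratio of the 10 genes, and that of ACTG1, whose window was the only one of the 11 with a CArG box. Each sequence is the 250 bases before the start, 5′ to 3′ on the gene's strand. In TMSB10 (chr2:84905406-84905655, plus strand) capitals mark the GC box GGGCGG on either strand, and in ACTG1 (chr17:81512800-81513049, minus strand) they mark the CArG box.
TMSB10 promoter: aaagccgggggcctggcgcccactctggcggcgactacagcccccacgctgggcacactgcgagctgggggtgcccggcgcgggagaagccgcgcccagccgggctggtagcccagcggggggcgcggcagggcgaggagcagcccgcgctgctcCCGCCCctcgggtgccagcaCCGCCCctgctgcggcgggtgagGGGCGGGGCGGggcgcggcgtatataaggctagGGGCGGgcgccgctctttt
ACTG1 promoter: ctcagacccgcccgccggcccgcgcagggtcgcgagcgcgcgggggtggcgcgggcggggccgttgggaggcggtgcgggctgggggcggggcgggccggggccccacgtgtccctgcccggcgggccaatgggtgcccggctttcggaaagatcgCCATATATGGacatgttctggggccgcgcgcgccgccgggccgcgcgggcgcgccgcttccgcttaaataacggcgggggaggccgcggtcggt
The CArG box of ACTG1 began 94 bases before the start. A CArG box occurred in 454 (1.29%) of 35116 promoter windows of the same kind, which run from 250 bases before the start to 50 after it. The TMSB10 window had 5 GC box matches, a neighbouring pair of which overlap by a single base. The GC box was found in 10 of the 11 windows of these genes and in 45.0% of all windows, counting either strand. The letters TATAAA, on either strand, were in 0 of the 11 windows and in 11.5% of all windows. Variants of TATAAA were not searched for, and the TMSB10 promoter shown holds TATATAAG. The count therefore says nothing of other TATA-like letters. A match is a description of the letters and not of a bound site.

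TMSB10 was the most abundant transcript of the control library and lost most of that level in shEIF3F. It stood at 1606 TPM in shEIF3F, against 18516 TPM in shCON, an 11.5-fold lower level (8.67% of shCON). Its log2 ratio was -3.53. By level it ranked 113 in shEIF3F and 1 in shCON, where RPS27 (16115 TPM) and MT-ATP8 (15164 TPM) followed it. It held 0.162% of the TPM in shEIF3F and 1.87% in shCON. No other gene differed by as many TPM downwards. Among the 1046 genes that averaged at least 100 TPM, its log2 ratio was 21 from the lowest, and among all genes tested 136 had a ratio at or below it. The annotated TMSB10 transcript is short, at 496 bases, and 2.24% of its 50-base windows occurred in the transcript of another gene, all of them in the pseudogene TMSB10P1. TMSB10P1 and TMSB10P2 were listed at 0 TPM in both libraries.

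TMSB4X, the other main beta thymosin of human cells, was scarce in this line. It stood at 10.1 TPM in shEIF3F and 10.2 TPM in shCON (log2 ratio -0.02). Inside a library TMSB10 therefore exceeded TMSB4X 159.6-fold in shEIF3F and 1819-fold in shCON. TMSB4X is known for many processed pseudogenes, and 11.1% of the 50-base windows of its transcript (184) occurred in other genes, so its value is uncertain. Of these windows 96 occurred in BCAS4, which stood at 3.45 TPM in shEIF3F and 11.2 TPM in shCON, levels of the same order as those of TMSB4X. The 6 rows named as TMSB4X pseudogenes summed to 0.25 TPM in shEIF3F and 0 in shCON. The further beta thymosins were near the limit of the table: TMSB15A stood at 0.08 TPM in shEIF3F and 2.88 TPM in shCON, and TMSB15B, named after its values were seen and summed over 2 entries, at 0.85 TPM in shEIF3F and 2.70 TPM in shCON.

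**Figure D1:**
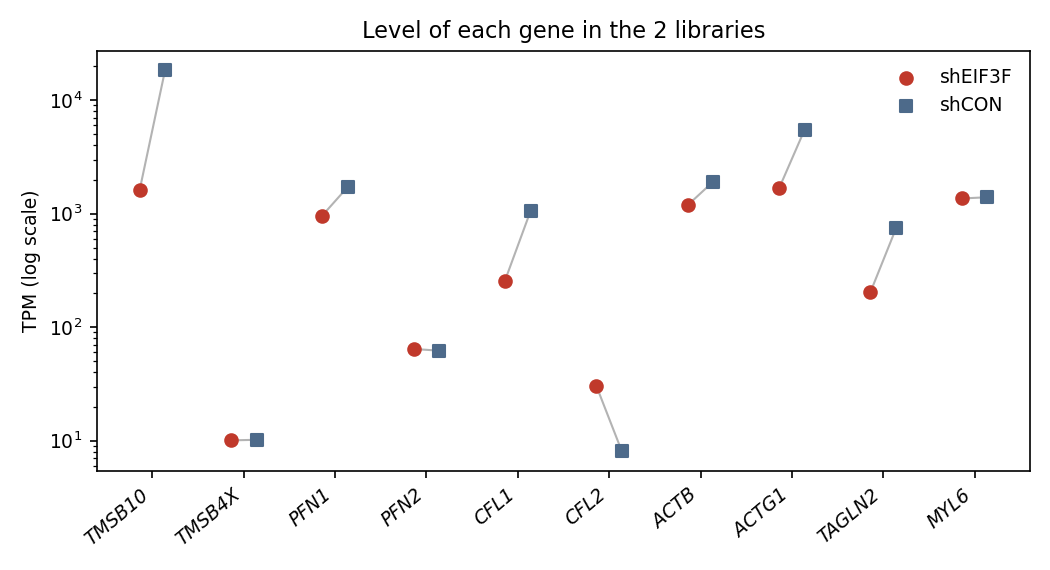
TPM of the 10 genes on a log axis, with circles for the shEIF3F library and squares for the shCON library, 1 library each and so no error bars. TMSB10 shows the longest step, at 1606 TPM in shEIF3F and 18516 TPM in shCON, and CFL2 is the 1 gene more than 2-fold higher in shEIF3F.

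The cytoplasmic actins were both lower, to different extents. ACTG1 stood at 1672 TPM in shEIF3F and 5507 TPM in shCON (log2 ratio -1.72), and ACTB at 1189 TPM in shEIF3F and 1921 TPM in shCON (-0.69). ACTG1 was thus 3.29-fold lower and ACTB 1.62-fold lower. The ratio of ACTB to ACTG1, which does not depend on how the libraries are scaled, was 0.711 in shEIF3F and 0.349 in shCON. In rank ACTG1 was 110 in shEIF3F and 23 in shCON, and ACTB 125 in shEIF3F and 86 in shCON. Together the actins summed to 2860 TPM in shEIF3F and 7428 TPM in shCON. Their pseudogene rows, 10 for ACTB and 20 for ACTG1, held 0.0819% of their own gene's level or less in either library. ACTB is often used to normalise transcript measurements, and its level relative to the library total was 61.9% of shCON here.

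The cofilin paralogs went opposite ways. CFL1, the nonmuscle cofilin, stood at 257 TPM in shEIF3F and 1057 TPM in shCON (log2 ratio -2.03). CFL2, the form known for its role in muscle, stood at 30.4 TPM in shEIF3F and 8.03 TPM in shCON (1.80). CFL1 exceeded CFL2 8.47-fold in shEIF3F and 132-fold in shCON, the largest shift of any ratio between paralogs among the pairs compared. CFL1 remained the more abundant form in both libraries. Exons of CFL1 share 759 bases with MUS81 and 357 with SNX32, both on the opposite strand, and whether strand was used in counting is not given. MUS81 was at 19.8 TPM in shEIF3F and 21.3 TPM in shCON, and SNX32 at 3.87 TPM in shEIF3F and 5.51 TPM in shCON, all far below CFL1. The CFL2 transcript is the longest of the 10, at 6747 bases, and the lowest in GC content, at 37.7%.

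The profilins moved less. PFN1, the ubiquitous form, stood at 963 TPM in shEIF3F and 1725 TPM in shCON (log2 ratio -0.84), 1.79-fold lower. PFN2, the form enriched in brain, stood at 64.3 TPM in shEIF3F and 62.1 TPM in shCON (0.05). PFN1 exceeded PFN2 15.0-fold in shEIF3F and 27.8-fold in shCON. In each of the 3 paralog pairs (thymosins, cofilins, profilins) the form that dominated in shCON still dominated in shEIF3F, by a smaller margin. The ratio of MYL6 to MYL6B went the other way. Of the PFN1 transcript 13.8% of windows occurred in other genes, the most of the 10, and the 10 PFN1 pseudogene rows summed to 0.37 TPM in shEIF3F and 2.06 TPM in shCON. PFN1 also shares 111 exon bases with ENO3 on the opposite strand, which was at 3.60 TPM in shEIF3F and 11.2 TPM in shCON.

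TAGLN2 binds filaments rather than monomers, and MYL6 is part of a motor that moves along filaments. TAGLN2, an actin-bundling relative of the smooth muscle protein transgelin, stood at 203 TPM in shEIF3F and 742 TPM in shCON (log2 ratio -1.86), 3.64-fold lower. MYL6, the essential light chain of nonmuscle and smooth muscle myosin II, stood at 1361 TPM in shEIF3F and 1396 TPM in shCON (-0.04), the nearest to equal of the abundant members. Its neighbour MYL6B, which encodes a related light chain and shares 89 exon bases with it on the same strand, was at 95.1 TPM in shEIF3F and 181 TPM in shCON (-0.92). MYL6 exceeded MYL6B 14.3-fold in shEIF3F and 7.71-fold in shCON, a wider margin in shEIF3F, unlike the 3 pairs above. MYL6 shares a further 514 exon bases with SMARCC2 on the opposite strand, which was at 19.2 TPM in shEIF3F and 32.0 TPM in shCON. Of the 50-base windows of the MYL6 transcript, 41 (4.81%) occurred in other genes, all of them in MYL6B. Reads of MYL6 and MYL6B could therefore also be divided wrongly.

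**Figure D2:**
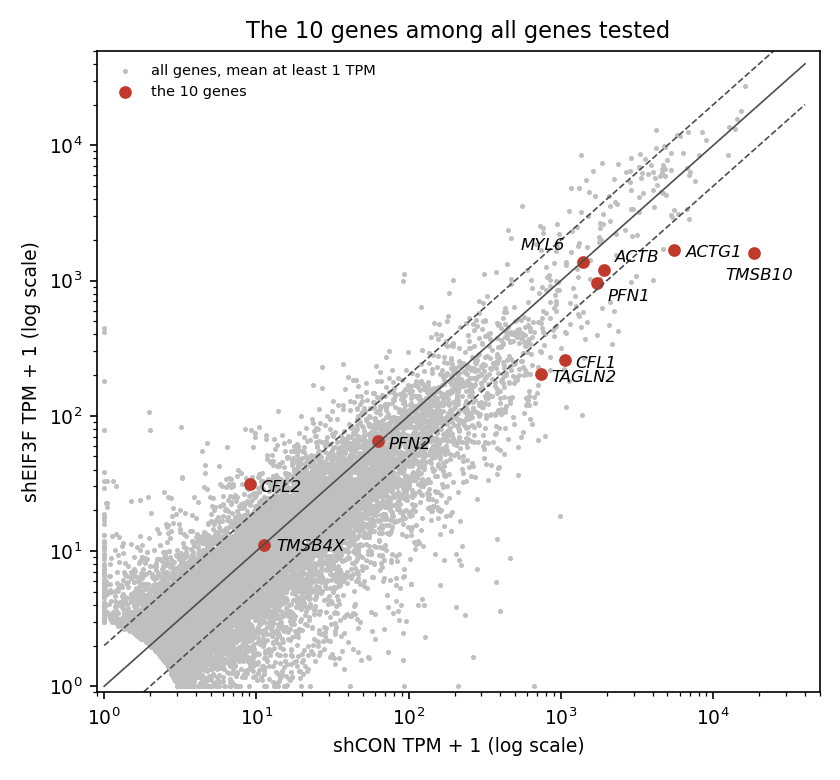
Each point is 1 gene that averaged at least 1 TPM, with shEIF3F TPM + 1 on the vertical log axis and shCON TPM + 1 on the horizontal one; the solid line marks equal levels and the dashed lines a ratio of 2 either way. Of the 10 genes, drawn larger, TMSB10 lies farthest to the right, at 18516 TPM in shCON, and MYL6, PFN2 and TMSB4X lie on the line of equal levels.

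TMSB10 transcripts outnumbered those of ACTB and ACTG1 together in shCON, and the reverse held in shEIF3F. The beta thymosin sum, 1616 TPM in shEIF3F and 18526 TPM in shCON, is nearly all TMSB10, which was chosen in part for its steep difference. TMSB4X stood at 10.1 TPM in shEIF3F and 10.2 TPM in shCON. The ratio below therefore restates the TMSB10 difference, and nothing is read from it about sequestering proteins as a class. Summed beta thymosins stood at 0.565 transcripts per transcript of ACTB and ACTG1 in shEIF3F, against 2.49 in shCON, a 4.42-fold lower ratio. Summed profilins stood at 0.359 per actin transcript in shEIF3F and 0.241 in shCON. Summed cofilins stood at 0.101 in shEIF3F and 0.143 in shCON. The profilin and cofilin ratios thus moved by less than 1.5-fold, in opposite directions. The cofilin sum is of CFL1 and CFL2 only. It leaves out destrin (DSTN), of the same family, which was at 282 TPM in shEIF3F and 144 TPM in shCON. The direction given is therefore that of CFL1 and CFL2 and not of the whole family. The 10 genes together summed to 7356 TPM in shEIF3F and 30943 TPM in shCON, of which TMSB10 made up 21.8% in shEIF3F and 59.8% in shCON. Without TMSB10 the other 9 summed to 5751 TPM in shEIF3F and 12428 TPM in shCON, 46.3% of the control level. These are transcript levels, and say nothing of protein. In bulk RNA, fewer cells of a type and less RNA per cell cannot be told apart.

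**Figure D3:**
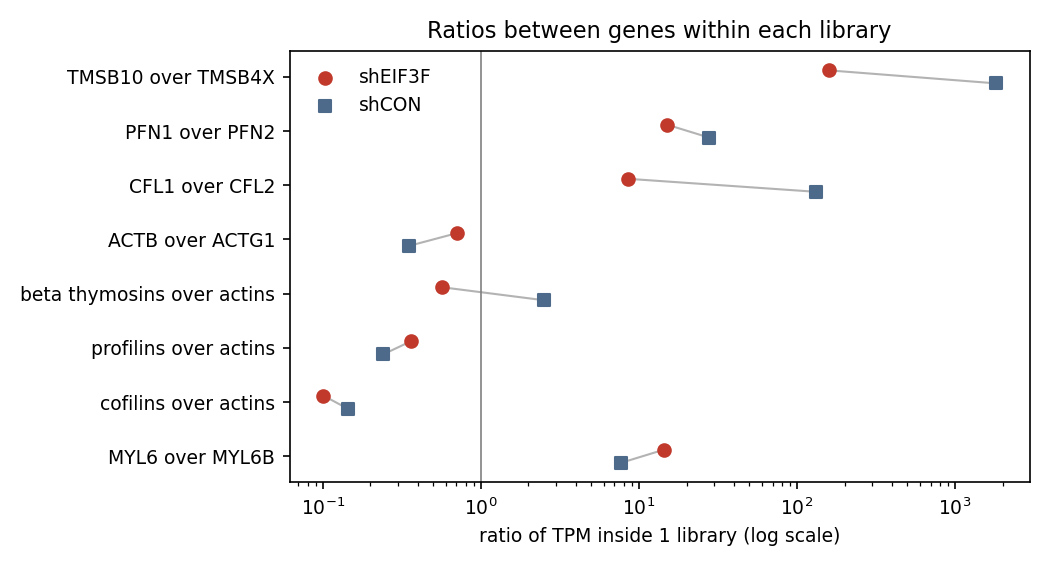
Ratios of TPM between genes inside each library on a log axis, with circles for shEIF3F and squares for shCON. Beta thymosins (nearly all TMSB10) over actins lies below 1 in shEIF3F (0.565) and above 1 in shCON (2.49). CFL1 over CFL2 shows the widest gap, at 8.47 in shEIF3F and 132 in shCON.

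Counted by size, 4 of the 10 genes (TMSB10, CFL1, TAGLN2 and ACTG1) were lower in shEIF3F by 2-fold or more, 1 (CFL2) was higher by 2-fold or more and 5 lay within 2-fold. The same limits put 25.5% of all 13305 genes tested on the lower side and 8.43% on the higher side. For the 1046 genes averaging 100 TPM or more these shares were 31.7% and 8.99%. Since the genes were chosen with this contrast known, nothing is read from the count. The median log2 ratio was -0.77 over the 10 genes, -0.48 over the abundant genes and -0.36 over all genes. The median of all genes lies below 0, so the ratios were also taken relative to it. The calls on the 10 genes were the same once ratios were centred on that median, where 16.0% of all genes were lower and 14.7% higher, and 21.5% and 14.9% of the abundant ones. Centred values were -3.17 for TMSB10, -1.68 for CFL1, -1.50 for TAGLN2, -1.36 for ACTG1 and 2.16 for CFL2. PFN1 was then at -0.48 and ACTB at -0.33. TMSB4X (0.34) and MYL6 (0.32) were above 0 after centring and below it as deposited, and so have no direction of their own.

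Log2 ratios across all genes went with transcript GC content, which differed among the 10 genes. With genes placed in 20 bins of GC content, the median log2 ratio was 0.069 in the most AT-rich bin (36.5% GC) and -1.15 in the most GC-rich bin (66.5% GC). CFL2 (37.7% GC) and PFN2 (41.6%) had the most AT-rich transcripts, whereas the other 8 lay between 52.8% (TMSB4X) and 58.5% (PFN1). With the GC trend removed, TMSB10 was at -3.01, CFL1 at -1.58, TAGLN2 at -1.41, ACTG1 at -1.27 and CFL2 at 1.73, all still past 2-fold, with 13.9% of all genes lower and 13.3% higher. PFN1 moved to -0.09, PFN2 to 0.15 and ACTB to -0.21 by the same step, so PFN1 and PFN2 lay closer together than as deposited.

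**Figure D4:**
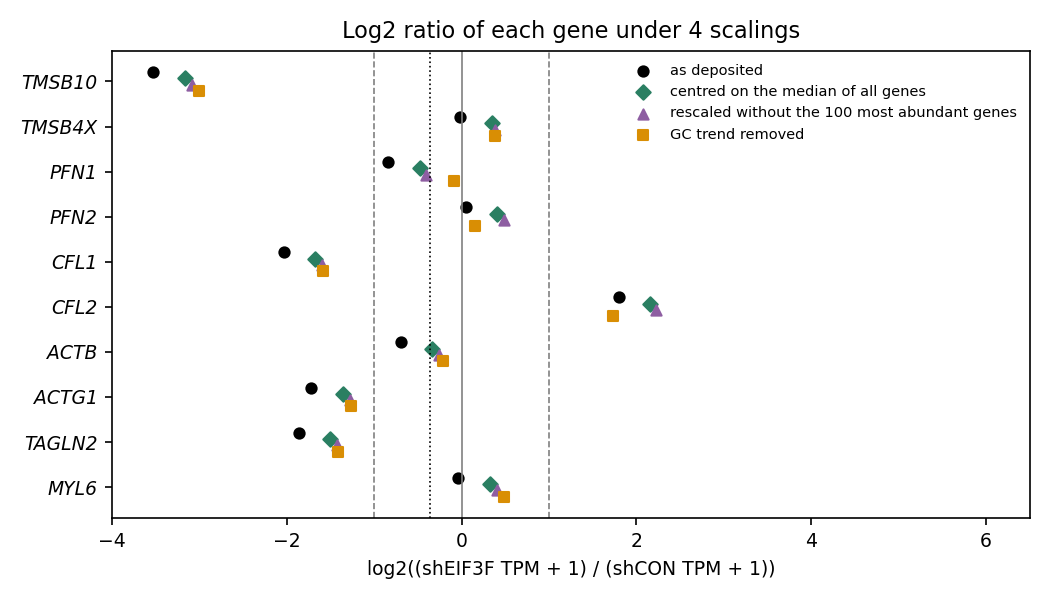
Log2 ratio of each of the 10 genes as deposited, centred on the median of all genes, after the libraries were rescaled without the 100 most abundant genes, and with the GC trend removed. Dashed lines mark 2-fold and the dotted line the median of all genes as deposited (-0.36); TMSB10, CFL1, ACTG1, TAGLN2 and CFL2 lie outside the dashed lines under all 4 scalings and the other 5 genes inside.

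The genes nearest to TMSB10 in level were found by the Euclidean distance of log2(TPM + 1) over the 2 libraries. They were MT-ND3 at a distance of 1.64, ACTG1 at 1.75, FP236383.1 at 1.82, GAPDH at 1.92, ATP5MF at 1.98, MT-ND4L at 1.99, PPIA at 2.02 and RPL10 at 2.04. All 8 were lower in shEIF3F than in shCON, with log2 ratios from -1.72 (ACTG1) to -0.75 (PPIA), none as low as TMSB10. ACTG1 was thus the member nearest by this distance, which is set mainly by level. By log2 ratio alone CFL1 (-2.03) and TAGLN2 (-1.86) were nearer to TMSB10 (-3.53) than ACTG1 (-1.72).

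The rest of the actin machinery, 128 genes in 11 lists, held genes on both sides of the 2-fold limits. Of 110 measured genes, 26 were lower in shEIF3F by 2-fold or more and 6 higher, against 25.5% and 8.43% of all genes, and the median log2 ratio was -0.32, against -0.36 for all genes. After centring the split was 13 lower and 19 higher, beside 16.0% and 14.7% of all genes, a step that moves every gene alike. With the GC trend removed it was 11 lower and 12 higher, beside 13.9% and 13.3% of all genes. These shares over all genes are also the background for each list below, and nothing is read from the count of a single list. Their summed level was 4385 TPM in shEIF3F and 4923 TPM in shCON. The sum of the 10 genes differed more, but it holds TMSB10, which was chosen in part for its steep difference. Nothing is read from that contrast. Several genes given below as lower were within 2-fold with the GC trend removed, among them TWF2 (-0.92), INF2 (-0.87), FLNC (-0.45), PAK4 (-0.38) and PDXP (0.04). Others stayed past 2-fold, among them VASP (-1.71), FSCN1 (-1.39), FMNL1 (-1.31), MSN (-1.30) and ARPC1B (-1.26).

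Among the other actins, smooth muscle actin ACTA2 was the 1 form measured, at 27.5 TPM in shEIF3F and 3.73 TPM in shCON (log2 ratio 2.59). ACTC1 and ACTBL2 were listed at 0 in both libraries. Other monomer-binding and depolymerising genes had 5 of 14 lower by 2-fold or more and 0 higher, and 3 lower and 2 higher after centring. Coronin CORO1A stood at 0.18 TPM in shEIF3F and 3.43 TPM in shCON (-1.91), CORO1C at 8.05 TPM in shEIF3F and 21.2 TPM in shCON (-1.30), and twinfilin TWF2, which binds monomers and caps filaments, at 20.5 TPM in shEIF3F and 75.7 TPM in shCON (-1.83). The third member of the cofilin family, destrin (DSTN), named after its values were seen, was at 282 TPM in shEIF3F and 144 TPM in shCON (0.96, and 1.32 after centring). It was thus above CFL1 in shEIF3F and below it in shCON. Kinases and phosphatases that act on cofilin or upstream of it had 4 of 12 past the same limit on the lower side and 0 on the higher side. The 4 were the slingshot phosphatase SSH2 (-1.23), the kinase PAK4 (-1.13), the phosphatase PDXP (-1.11) and the kinase TESK2 (-1.03). None of the 4 was past 2-fold after centring.

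The Arp2/3 complex, which nucleates branched filaments, had 3 of 10 genes lower by 2-fold or more and 0 higher. ARPC1B stood at 106.5 TPM in shEIF3F and 425 TPM in shCON (log2 ratio -1.99), whereas ARPC3 stood at 215 TPM in shEIF3F and 125 TPM in shCON (0.77). ACTR3B (-1.26) and ARPC1A, at 116 TPM in shEIF3F and 234 TPM in shCON, were the others past 2-fold, and ARPC1B alone remained so after centring (-1.63), where ARPC3 passed the limit on the higher side (1.13). Of 22 measured nucleation promoters and formins, 6 were lower and 1 higher, and 4 lower and 3 higher after centring. The filament elongation factor VASP stood at 10.9 TPM in shEIF3F and 63.1 TPM in shCON (-2.43), and the formins FMNL1 (-2.22) and INF2 (-1.78) were also lower. CYFIP2, a subunit of the WAVE complex, stood at 6.74 TPM in shEIF3F and 0.44 TPM in shCON (2.43).

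Capping and severing genes had 2 of 13 lower and 1 higher, with gelsolin (GSN) at 15.2 TPM in shEIF3F and 4.27 TPM in shCON (log2 ratio 1.62), CAPZA2 at 0.93, CAPZB at -1.02 and SCIN at -1.01. After centring 0 were lower and 4 higher. None of the 4 tropomyosins was past 2-fold as deposited, with ratios from -0.77 for TPM3 to 0.68 for TPM1, and TPM1 alone was after centring (1.03). The calponin CNN3 was lower, at 7.09 TPM in shEIF3F and 42.6 TPM in shCON (-2.43). CNN2 was also lower as deposited, at 19.7 TPM in shEIF3F and 58.6 TPM in shCON (-1.53). With the GC trend removed CNN3 was at -2.26 and CNN2 at -0.78, inside 2-fold, against -1.41 for TAGLN2. TAGLN, the smooth muscle paralog of TAGLN2, was at 8.52 TPM in shEIF3F and 4.52 TPM in shCON (0.79, and 1.14 after centring).

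The list of nonmuscle myosin II genes, with light chains, a kinase and phosphatase subunits, held genes on both sides. Of 11 genes, 1 was lower and 2 higher, and 1 lower and 3 higher after centring. The heavy chain MYH14 was at 8.30 TPM in shEIF3F and 23.4 TPM in shCON (log2 ratio -1.39, and -0.48 with the GC trend removed). The heavy chains MYH9, at 59.1 TPM in shEIF3F and 46.95 TPM in shCON (0.33), and MYH10 (-0.45) were within 2-fold. Both were named after their values were seen. The regulatory light chain MYL9 was at 17.2 TPM in shEIF3F and 1.79 TPM in shCON (2.71), and MYL12A at 191 TPM in shEIF3F and 84.3 TPM in shCON (1.17). PPP1R12B, a regulatory subunit of myosin phosphatase, was at 0.67 TPM in shEIF3F and 2.33 TPM in shCON, just inside the limit on the log2 scale with its pseudocount. Among 17 crosslinkers and membrane linkers 3 were lower, fascin FSCN1 (-2.54), moesin MSN (-1.50) and filamin FLNC (-1.21), and 1 higher, talin TLN1 (1.08), against 2 lower and 3 higher after centring. SRF was at 11.1 TPM in shEIF3F and 15.0 TPM in shCON (-0.40), MRTFA at 3.14 TPM in shEIF3F and 3.17 TPM in shCON (-0.01) and MRTFB at 2.88 TPM in shEIF3F and 2.11 TPM in shCON (0.32).

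**Figure D5:**
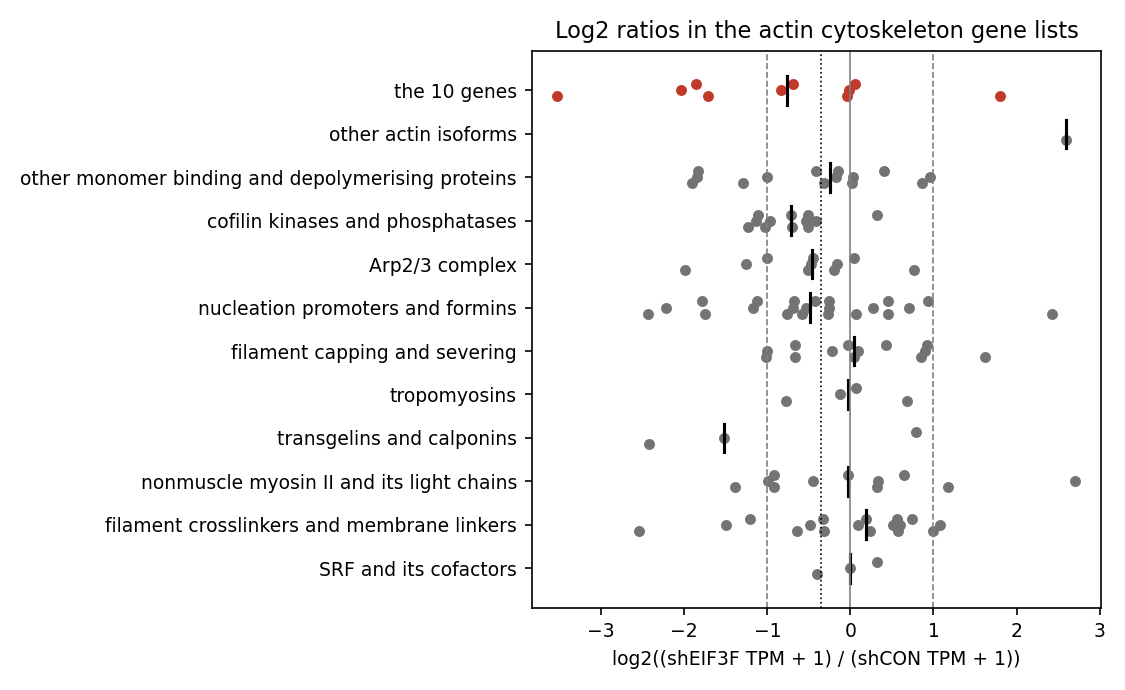
Log2 ratio of each measured gene in the 10-gene list (top) and in 11 lists of related actin genes, 1 point per gene, with a bar at each list's median; dashed lines mark 2-fold and the dotted line the median of all genes (-0.36). TMSB10, at -3.53, is the lowest point of any list, and MYL9, at 2.71, the highest.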

How the data were processed

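RNA-seq values were available for 1 shEIF3F and 1 shCON library of 22Rv1 cells. The authors deposited TPM per gene symbol, with 2 decimals, in a column per library. Per the submitters' processing notes, the tools were CASAVA and HISAT2 (no versions) and the build hg19. The gene counter, its annotation, filters and whether strand was used were not given in the sources used here. TPM keeps no read number, so no interval or detection limit was computed.

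Entries sharing a symbol were summed. The 27 entries with date-like symbols and 6053 symbols of small or ribosomal RNA genes were left out. Log2 ratios used a pseudocount of 1 TPM, which understates ratios of genes near 1 TPM, and only genes that averaged at least 1 TPM were tested. A log2 ratio of 1 or more, or -1 or less, was counted as at least 2-fold, a rule of size and not a test. The members and lists were chosen with earlier results of these data known, and the ratios of profilins and cofilins to actins and of MYL6 to MYL6B were added after the values were seen. Named genes were the 10 members, up to 4 genes per related list with the largest absolute log2 ratio, and the 8 genes nearest to TMSB10. GENCODE release 29 (GRCh38), in which 98.7% of symbols were found, gave gene types, GC content, exon overlap, coding sequences and 50-base windows. GC content is that of the longest transcript of a gene's own type, and the GC trend was removed by centring within 20 GC bins. Calculations used Python 3.11.15, NumPy 2.4.6, pandas 2.3.3 and matplotlib 3.10.9, and were tested on simulated data.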

Additional observations from a re-analysis of the deposited data

How the results depend on the processing

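The 10 alternatives were pseudocounts of 0.1 and 5 TPM, no filter or a mean of 5 TPM or more, centring on the median of all genes, rescaling without the 100 most abundant genes or without cytosolic ribosomal protein genes, the most abundant entry per symbol, pseudogene TPM added to its parent gene, and removal of the GC trend. Under all 10, 4 of the 10 genes were at least 2-fold lower and 1 at least 2-fold higher. The choice of entry and the TPM filters could not change these calls, since each gene had 1 entry and passed every filter. TMSB10 ranged from -3.53 to -3.01, CFL1 from -2.04 to -1.58, TAGLN2 from -1.87 to -1.41, ACTG1 from -1.72 to -1.27 and CFL2 from 1.44 to 2.22. The within-library ratios moved by less than 1.5-fold with pseudogenes added. Choosing the most abundant entry left them unchanged, which was fixed in advance for ratios among the 10 genes. Pseudocounts, TPM filters, centring and rescaling do not enter them. Removal of the GC trend was not applied to them, though it shifts paralogs of unlike GC content by different amounts. With that trend removed PFN1 was at -0.09 and PFN2 at 0.15, against -0.84 and 0.05 as deposited. CFL1 was then at -1.58 and CFL2 at 1.73, against -2.03 and 1.80. Counts over the related actin genes depended on the setting, as did those over all genes. The count at least 2-fold lower, 26 as deposited, was 11 with a pseudocount of 5 TPM, 17 at a mean of 5 TPM or more, 13 after centring, 13 after rescaling without the abundant genes, 14 without ribosomal protein genes and 11 with the GC trend removed, while the count over all genes, 3399 as deposited, was 1898, 2374, 2130, 2222, 2341 and 1837 under the same settings. The count at least 2-fold higher, 6 as deposited, was 19, 20, 19 and 12 under the last 4 of these, where that over all genes, 1122 as deposited, was 1956, 2157, 2000 and 1756. Rescaling shifted log2 ratios by 0.44 without the abundant genes and 0.39 without ribosomal protein genes. Which scaling is right was not tested. No paired analysis was possible because each group has 1 library. Depth is unknown, so the precision of low values such as TMSB15A and CORO1A cannot be given.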
